A study of Mus musculus with 4 samples.

Results

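The CC chemokines described here are 10 genes, Ccl2, Ccl3, Ccl4, Ccl5, Ccl6, Ccl8, Ccl9, Ccl17, Ccl22 and Ccl24, out of 31053 genes counted, and each was found by its symbol. RNA of single cells was counted after live CD45.2+ leukocytes had been sorted from lungs of 10-week-old C57BL/6J animals. The 2 Lmna knockout libraries came from Lmna-flox/flox Vav1-cre+/- mice, and the 2 WT libraries from Lmna-flox/flox Vav1-cre-/- mice. Every animal thus has the floxed allele, and the Vav1 promoter drives Cre throughout the blood lineage. Cre is present in both knockout libraries and in neither WT library, so its own effect and the loss of Lmna cannot be told apart.

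CC chemokines are small secreted proteins that draw leukocytes along a gradient by way of receptors coupled to G proteins. Ccl2 recruits monocytes through CCR2, Ccl3, Ccl4 and Ccl5 attract monocytes, T cells and NK cells, and Ccl17 and Ccl22 share CCR4. In mice Ccl8 acts on CCR8 and Ccl24 attracts eosinophils through CCR3, while Ccl6 and Ccl9 are rodent chemokines that act on CCR1. In the lung they are made by resident macrophages and by recruited cells, and they help set which leukocytes enter the tissue.

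Of the members, 7 lie on chromosome 11 between 82035571 and 83664683 (mm10), Ccl17 and Ccl22 lie on chromosome 8 between 94745590 and 94812036, and Ccl24 lies on chromosome 5 from 135569937 to 135573049. All are annotated as protein coding. RefSeq promoters on GRCm38.p6, from 250 bases before to 50 bases after the gene start, were at hand for 6 of the 10 members. The 3 shown belong to members whose RNA was higher in both knockout libraries than in both WT libraries in alveolar macrophage-like cells, the class in which most member calls were made: Ccl6 (chr11:83593038-83593337, minus strand) and its neighbour Ccl9 (chr11:83578587-83578886, minus strand), and Ccl17 (chr8:94810203-94810502, plus strand). They run 5′ to 3′, and capitals mark matches of 6 motifs read on both strands.
Ccl6: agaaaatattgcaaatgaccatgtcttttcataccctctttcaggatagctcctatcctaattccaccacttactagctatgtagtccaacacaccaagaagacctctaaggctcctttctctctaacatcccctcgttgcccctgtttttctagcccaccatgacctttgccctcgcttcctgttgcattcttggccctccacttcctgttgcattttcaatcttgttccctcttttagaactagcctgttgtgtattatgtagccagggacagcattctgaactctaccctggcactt
Ccl9: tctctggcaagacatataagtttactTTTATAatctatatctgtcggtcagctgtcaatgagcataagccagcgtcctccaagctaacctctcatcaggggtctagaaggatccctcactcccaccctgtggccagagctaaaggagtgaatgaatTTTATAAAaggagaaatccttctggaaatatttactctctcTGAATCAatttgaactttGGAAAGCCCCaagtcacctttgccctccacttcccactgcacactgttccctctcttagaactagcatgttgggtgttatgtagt
Ccl17: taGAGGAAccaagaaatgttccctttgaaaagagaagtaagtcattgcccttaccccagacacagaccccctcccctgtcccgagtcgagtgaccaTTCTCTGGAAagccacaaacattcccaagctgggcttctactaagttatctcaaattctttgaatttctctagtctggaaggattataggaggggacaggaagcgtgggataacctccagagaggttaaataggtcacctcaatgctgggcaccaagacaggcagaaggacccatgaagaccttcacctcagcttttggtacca
The motifs were a kappa-B type (in order 3 G, any 2 bases, 3 T and 2 C), a STAT type (in order 2 T, 1 C, any 4 bases, 1 G and 2 A), TGANTCA (AP-1 type), TTGCNNAA (C/EBP type), GAGGAA (PU.1 type) and the TATA box in its form with the letters TATAAA. The Ccl9 window held the kappa-B type motif, found in 1.63% of all 32851 promoters, starting at -35 from the gene start. It also held the AP-1 type motif at -53 (7.81% of promoters) and 3 matches of the TATA box (13.6%), of which those at -94 and -92 overlap. The Ccl17 window held a STAT type motif at -154 (6.95% of promoters) and a PU.1 type motif at -248 (28.3%). None of the 6 was found in the Ccl6 window, and the C/EBP type motif (10.8%) was found in none of the 6 member promoters. The Ccl22 window, not shown, also held none of the 6 motifs. Ccl22 RNA, too, was higher in both knockout libraries than in both WT libraries in alveolar macrophage-like cells. These matches describe letters and are not evidence of binding.

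The libraries held 3860 to 4322 barcodes and 21780914 to 27045250 UMIs (unique molecular identifiers, each standing for a captured RNA molecule). After filtering, 3655 and 3488 knockout cells and 3817 and 3760 WT cells remained, with medians of 4067 to 4872 UMIs. Pairs of libraries shared 2 to 7 barcodes. WT 2 stood apart by 261 T cell precursor-like cells, against 0 to 7 in the other libraries, and by 184 cells of an unnamed cluster led by Top2a and Mki67, against 0 to 6. Neither group is among the classes tested below, but both are part of the sums over all kept cells. Lmna, the targeted gene (chromosome 3, 88480147 to 88509956, minus strand), had 57.1 and 77.3 CPM in knockout alveolar macrophage-like cells, against 381 and 334 CPM in WT (log2 fold change -2.36 ± 0.17, adjusted p = 2.3e-10). CPM here means a gene's UMIs scaled to all UMIs of the class in that library, ± after a fold change is its standard error, and adjusted p values come from edgeR's quasi-likelihood test with Benjamini-Hochberg adjustment over all genes of a class. The protocol in the labels names 2 mice of each genotype, so each library is taken as 1 mouse, and p values measure the spread between these libraries. The -like classes were named from markers, and the alveolar macrophage markers summed to 7840 and 6857 CPM in knockout and 7439 and 7675 CPM in WT alveolar macrophage-like cells, with none of the 10 at 0.

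The members differed in their source cells, and a few rare classes held much of the RNA. Basophil-like cells, 89 of 14720 cells, held 51.4% of all Ccl3 UMIs and 49.9% of all Ccl4 UMIs. NK cell-like cells held 71.7% of Ccl5 UMIs. Alveolar macrophage-like cells held 56.7% of Ccl6 UMIs, and classical monocyte-like cells held 45.1% of Ccl9 UMIs. Mature migratory dendritic cell-like cells, 46 cells in all, held 82.6% of Ccl22 UMIs. Ccl8 and Ccl24 were scarce, with 220 and 335 UMIs over all kept cells, and lay mostly in 32 interstitial macrophage-like cells led by C1qa and C1qb (97.3% of Ccl8 and 66.6% of Ccl24 UMIs). Levels between classes are descriptions without a test, since the classes are clusters of the same cells. Counts were made from the 3-prime end of transcripts, so CPM is not divided by length.

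**Figure D1:**
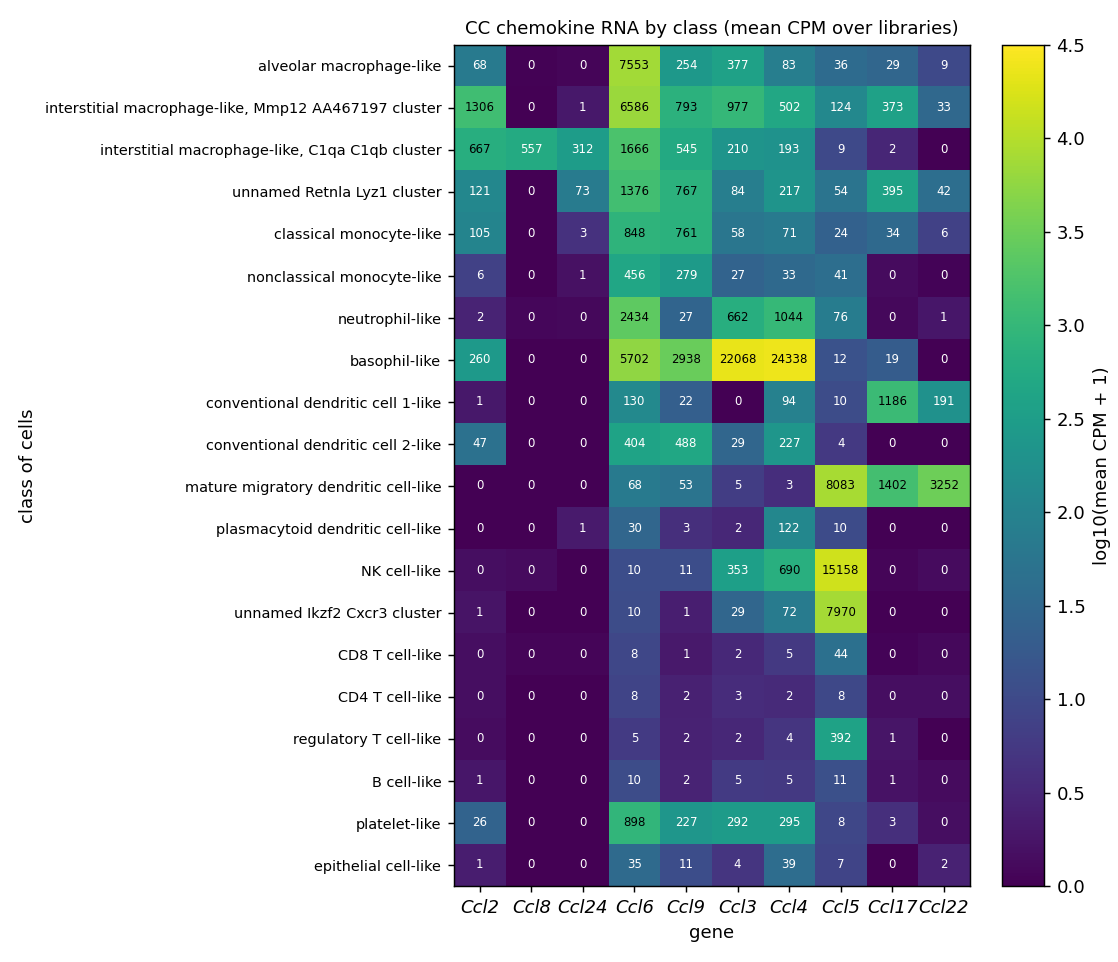
Mean CPM of each member (columns) in 20 of the 29 classes of cells (rows), averaged over the libraries with cells of that class, with colour on a log10 scale of CPM + 1. By mean, Ccl3 and Ccl4 peak in basophil-like cells, Ccl5 in NK cell-like cells, and Ccl17 and Ccl22 in mature migratory dendritic cell-like cells. Ccl8 and Ccl24 peak in the C1qa C1qb cluster. For Ccl2, Ccl5, Ccl6, Ccl17 and Ccl24 the libraries of the highest class overlap those of the next. The Mmp12 AA467197 cluster has 2 cells in WT 1 and none in WT 2.

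The monocyte attractant Ccl2 (chromosome 11, 82035571 to 82037453, plus strand) was highest in a cluster of interstitial macrophage-like cells led by Ccl7, Mmp12, Ccl2 and AA467197. This cluster had 21 and 17 cells in the knockout libraries, against 2 and 0 in WT. It held 1424 and 1683 CPM of Ccl2 in knockout 1 and knockout 2, and 810 CPM in WT 1, where all 22 UMIs came from 1 of the 2 cells. Its cells supplied 59.3% of knockout Ccl2 UMIs and 1.43% of WT Ccl2 UMIs. Alveolar macrophage-like cells supplied 2.72% in knockout and 40.3% in WT. Because Ccl2 is among the leading genes of that cluster, its level there is a description only. The C1qa C1qb cluster came next, at 1290 and 603 CPM in knockout and 448 and 326 CPM in WT. This range overlaps that of the Mmp12 AA467197 cluster. The Mmp12 AA467197 cluster also had Ccl6, at a mean of 9713 CPM (SD 4679) in knockout and 332 CPM in WT 1. Mean Ccl6 in knockout was 9788 CPM (SD 959) in alveolar macrophage-like cells and 1721 CPM (SD 1486) in the C1qa C1qb cluster. The name of the Mmp12 AA467197 cluster rests on markers, and the origin of its cells was not tested.

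**Figure D2:**
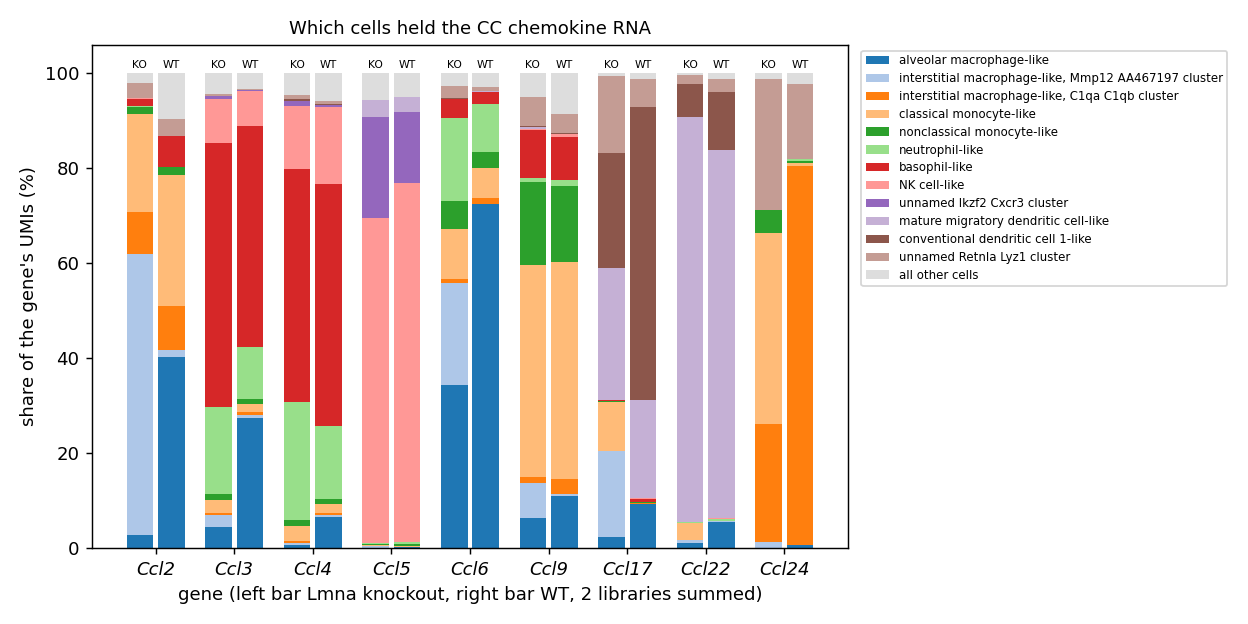
Share of each member's UMIs (%, vertical axis) held by each class, with the left bar for the 2 knockout libraries summed and the right bar for the 2 WT libraries summed. The Mmp12 AA467197 cluster holds 59.3% of knockout Ccl2 UMIs and 1.43% of WT ones; Ccl8, with 220 UMIs, is left out.

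Alveolar macrophages live in the airspace, and in the cells that carry their markers Ccl6 and Ccl17 rose and Ccl2 fell in knockout libraries. These are 3 of the 8 members that passed the filter on low counts, beside 6.11% of all 9027 genes tested there (552 called). The 2 that rose stand beside 3.31% of genes that rose, and the 1 that fell beside 2.8% that fell. Ccl8 had 0 UMIs in each knockout library, against 0 and 1 in WT, and Ccl24 had 0 in each, against 0 and 2, so neither was tested. The class was small in knockout, with 52 and 34 cells, against 231 and 233 in WT. The number of genes called in it was 168 without WT 1, 296 without WT 2 and 256 without knockout 1.

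Ccl6 (chromosome 11, 83587882 to 83593087, minus strand) is the most abundant of the members in these cells. It had 10466 and 9109 CPM in knockout alveolar macrophage-like cells, against 5513 and 5125 CPM in WT. Both knockout libraries lay above both WT libraries, and the log2 fold change was 0.94 ± 0.13 (adjusted p = 1.9e-05). A Ccl6 UMI was found in 100% of knockout cells in each library, against 99.1% and 99.6% of WT cells. The Ccl6 UMIs of the single richest cell of each library were also taken out, with the UMI total of the class unchanged. The values were then 9867 and 8349 CPM in knockout, against 5400 and 5024 CPM in WT.

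Ccl17 (chromosome 8, 94810453 to 94812036, plus strand), a CCR4 ligand that attracts helper and regulatory T cells, was a low-level transcript in alveolar macrophage-like cells. It had 54.1 and 42.0 CPM in knockout, against 12.5 and 8.44 CPM in WT, with no overlap (log2 fold change 2.24 ± 0.30, adjusted p = 1.4e-05). These values rest on 36 and 25 UMIs in knockout and 48 and 26 UMIs in WT. In knockout 1, 22 of the 36 UMIs came from 1 cell. The Ccl17 UMIs of the richest cell of each library were also taken out, with the UMI total of the class unchanged. The levels were then 21.1 and 30.2 CPM in knockout, against 8.86 and 5.84 CPM in WT, which still did not overlap. A Ccl17 UMI was found in 9.62% and 32.4% of knockout cells, against 2.60% and 3.43% of WT cells. Thinning took each cell with at least 6156 UMIs down to that number and left out the others. This kept 41 and 33 knockout cells and 215 and 206 WT cells, so the set of cells also changed. In the thinned cells the shares with a Ccl17 UMI were 12.2% and 12.1% in knockout, against 2.33% and 2.91% in WT. In B cell-like cells, a guide to free RNA, they were 0.109% and 0.433% in knockout and 0.108% and 0.133% in WT before thinning. Mature migratory dendritic cell-like cells had the highest mean Ccl17, with a range that overlapped that of conventional dendritic cell 1-like cells. Markers of mature migratory dendritic cells summed to 247 and 218 CPM in knockout and 268 and 237 CPM in WT alveolar macrophage-like cells. Of these 8 markers 4 and 4 were at 0 in knockout and 4 and 3 in WT, and their part in the result was not tested.

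Ccl2 in alveolar macrophage-like cells had 45.1 and 47.0 CPM in knockout, against 81.5 and 99.6 CPM in WT. The groups did not overlap, and the log2 fold change was -0.91 ± 0.21 (adjusted p = 0.0069). Interstitial macrophage markers summed to 13.5 and 26.9 CPM in knockout and 15.4 and 84.4 CPM in WT alveolar macrophage-like cells, with 4 and 5 of 8 at 0 in knockout and 2 and 1 in WT, and their part in the result was not tested. The adjusted p was 0.0862 without WT 2, 0.0805 without knockout 1, 0.0511 without knockout 2 and 0.0785 by DESeq2. When the Mmp12 AA467197 cluster was counted with the class, a choice made after seeing the data, the direction turned to a log2 fold change of 2.85 ± 0.14 (adjusted p = 2.1e-09), in a fit that called 16% of genes.

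The CCR1 ligand Ccl9 (chromosome 11, 83572919 to 83578636, minus strand) had 268 and 551 CPM in knockout alveolar macrophage-like cells, against 108 and 87.6 CPM in WT. The knockout values were both higher but far apart, and the log2 fold change of 2.12 ± 0.47 had an adjusted p of 0.191. By DESeq2 the adjusted p was 1.1e-09. The adjusted p was 2.9e-08 without knockout 1 and 1.1e-04 without knockout 2, in fits where the spread comes from the WT libraries alone and the distance between the knockout libraries is left out, 0.532 without WT 1 and 0.454 without WT 2. A Ccl9 UMI was found in 67.3% (exact 95% interval 52.9% to 79.7%) and 91.2% (76.3% to 98.1%) of knockout cells, against 43.3% (36.8% to 49.9%) and 34.8% (28.7% to 41.3%) of WT cells. Among the cells with at least 6156 UMIs, thinned to that number, the shares were 56.1% and 78.8% in knockout, against 29.8% and 26.7% in WT. In B cell-like cells the shares were 0.435% and 1.08% in knockout and 0.431% and 0.665% in WT. The median depth was 13665 and 16861 UMIs in knockout and 16919 and 13407 UMIs in WT alveolar macrophage-like cells, and 3398 to 3832 UMIs in B cell-like cells.

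The other 4 tested members gave no call in alveolar macrophage-like cells. Ccl22, the second CCR4 ligand, had 13.5 and 10.1 CPM in knockout, against 5.99 and 5.84 CPM in WT (log2 fold change 1.06 ± 0.51, adjusted p = 0.247). Ccl3 had 441 and 353 CPM in knockout, against 425 and 290 CPM in WT, and the ranges overlapped (log2 fold change 0.21 ± 0.18, adjusted p = 0.573). Ccl4 had 93.2 and 53.7 CPM in knockout, against 135 and 48.7 CPM in WT, again overlapping (-0.26 ± 0.89, adjusted p = 0.932). Ccl5 had 9.02 and 97.4 CPM in knockout, against 25.3 and 13.6 CPM in WT, and 53 of the 58 UMIs in knockout 2 came from 1 cell (log2 fold change 1.44 ± 1.29, adjusted p = 0.693). Over the 8 tested members the median log2 fold change was 1.002, beside 0.0020 over all genes tested. As shares of cells with a UMI, 5 members (Ccl3, Ccl6, Ccl9, Ccl17 and Ccl22) were higher in both knockout libraries than in both WT libraries and 1 (Ccl2) was lower, where 29.1% of detected genes did not overlap. Thinning is random and was drawn 2 times: Ccl3, Ccl9 and Ccl17 were higher and Ccl2 was lower in both draws, Ccl4 was higher in 1 draw alone and Ccl22 in the other alone. In the draw made for all genes 43.4% did not overlap. With 2 libraries a group no exact test over libraries can pass 0.05, so none is given.

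**Figure D3:**
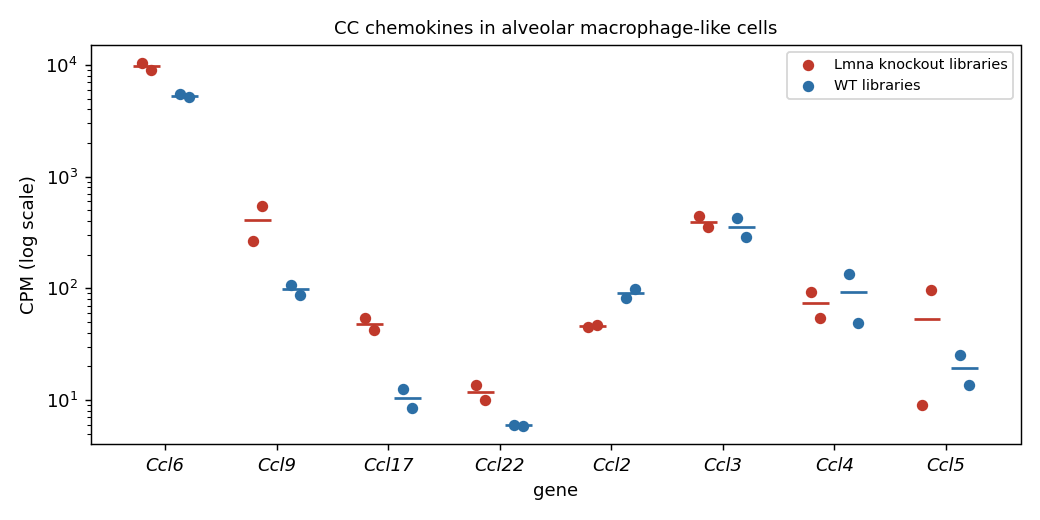
CPM (log axis) of the 8 tested members in alveolar macrophage-like cells, 1 point per library with knockout on the left and WT on the right of each gene, and a line at the mean. Knockout and WT points do not overlap for Ccl6, Ccl9, Ccl17, Ccl22 and Ccl2, and they overlap for Ccl3, Ccl4 and Ccl5.

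A call in this class does not show that the effect differed from that of other classes, so the difference itself was tested for the 16 pairs of member and class with at least 20 UMIs in every library. The Ccl6 effect in alveolar macrophage-like cells exceeded that in classical monocyte-like cells by 0.92 ± 0.10 on the log2 scale (adjusted p = 7.6e-04, in a comparison where 0.326% of genes were called). With cells classed by their own markers this difference was -0.06 ± 0.18 (adjusted p = 0.957), and the Ccl6 effect in classical monocyte-like cells was then 0.98 ± 0.14 (adjusted p = 9.2e-04). The Ccl6 effect exceeded that in nonclassical monocyte-like cells by 0.63 ± 0.13 (adjusted p = 0.0159, 1.11% called), with an adjusted p of 0.101 without WT 2, 0.0730 without knockout 1, 0.0553 without knockout 2 and 0.0524 with doublets kept. It exceeded that in B cell-like cells by 0.91 ± 0.17 (adjusted p = 0.0241, 1.35% called), with an adjusted p of 0.110 without WT 1, 0.170 without WT 2, 0.190 without knockout 1, 0.0686 without knockout 2 and 0.0588 without the filter on low counts. The Ccl6 level in B cell-like cells was 9.36 and 10.4 CPM in knockout and 9.90 and 10.8 CPM in WT. Classical monocyte-like cells had 907 and 783 CPM of Ccl6 in knockout, against 828 and 876 CPM in WT. Against neutrophil-like cells the Ccl6 difference was 0.60 ± 0.19 with an adjusted p of 0.250 (0.467% called). The Ccl3 effect was lower in alveolar macrophage-like than in NK cell-like cells by a log2 difference of -0.58 ± 0.17 (adjusted p = 0.0477, 1.31% called), with an adjusted p of 0.508 without WT 1, 0.519 without WT 2, 0.108 without knockout 1, 0.0801 without knockout 2, 0.102 with doublets kept and 0.0629 with cells classed by their own markers. None of the other pairs passed with all libraries kept. The Ccl9 effect minus that in nonclassical monocyte-like cells, 1.62 ± 0.53 with an adjusted p of 0.478, passed in each of the 4 fits without a library (1.1e-07 to 0.0453), where the lone library is assumed to vary like the other genotype's. The pairs that did not pass include Ccl4 against the Ikzf2 Cxcr3 cluster (-1.08 ± 0.33, adjusted p = 0.106, 0.664% called).

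In neutrophil-like cells Ccl4, an attractant of monocytes and T cells, rose in knockout libraries. It was the 1 member called of 5 tested there, where 0.538% of 5759 genes were called. Ccl4 (chromosome 11, 83662584 to 83664683, plus strand) had 1697 and 1139 CPM in knockout, against 719 and 618 CPM in WT, without overlap (log2 fold change 1.05 ± 0.19, adjusted p = 0.0267). Its neighbour Ccl3 (chromosome 11, 83647844 to 83649355, minus strand) had 1052 and 708 CPM in knockout, against 528 and 359 CPM in WT (0.96 ± 0.21, adjusted p = 0.0840). Ccl6 had 3076 and 2309 CPM in knockout, against 2312 and 2038 CPM in WT, and the ranges overlapped (0.27 ± 0.17, adjusted p = 0.707). The adjusted p of Ccl4 was 0.0693 without WT 2, 0.120 without knockout 1 and 0.780 with chemokine genes among the clustering genes. Ccl3 passed the threshold by DESeq2 (adjusted p = 0.0424). Its adjusted p was 0.0057 without WT 1 and 0.0021 without knockout 2, in fits where the lone library of a genotype is assumed to vary like the other genotype's libraries. It was 0.225 without WT 2 and 0.240 without knockout 1.

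The neutrophil-like cells fell into 5 clusters and 1 of them was led by Csf1 and Ccrl2, with Il1rn, Ptgs2 and Il1b among its further leading genes. This cluster made up 40.4% and 34.7% of knockout and 31.6% and 26.9% of WT neutrophil-like cells. Ccl4 had 2033 and 2605 CPM there in knockout, against 752 and 861 CPM in WT, and Ccl3 had 1622 and 1591 CPM in knockout, against 717 and 750 CPM in WT. Tested on that cluster alone, a choice made after seeing the data, the log2 fold change was 1.52 ± 0.18 for Ccl4 (adjusted p = 0.0017) and 1.13 ± 0.17 for Ccl3 (adjusted p = 0.0075), in a fit that called 0.719% of genes. In the other neutrophil-like clusters together it was 0.67 ± 0.66 for Ccl4 (adjusted p = 0.938) and 0.57 ± 0.55 for Ccl3 (adjusted p = 0.933), with 0.443% of genes called. The difference between the clusters was not tested. In the interferon-response cluster led by Rsad2 and Ifit1, Ccl4 had 5829 and 356 CPM in knockout and 1223 and 459 CPM in WT, from 14 to 37 cells a library.

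Ccl3 and Ccl4 were often found in the same neutrophil-like cells. Among cells with a Ccl3 UMI, 48.7% and 54.8% in knockout and 53.2% and 45.2% in WT also had one of Ccl4. Among cells without Ccl3 the shares were 17.6% and 13.2% in knockout and 16.6% and 12.1% in WT. The part of depth per cell in these shares was not tested. Basophil markers summed to 2928 and 2860 CPM in knockout and 3538 and 2943 CPM in WT neutrophil-like cells. Of the 7 markers, 6 and 5 were at 0 in knockout and 5 and 3 in WT. Hdc, 1 of the 7, is also among the leading genes of the Csf1 Ccrl2 cluster of neutrophil-like cells, so the sums are not specific to basophils. The part of basophil RNA in the result was not tested.

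**Figure D4:**
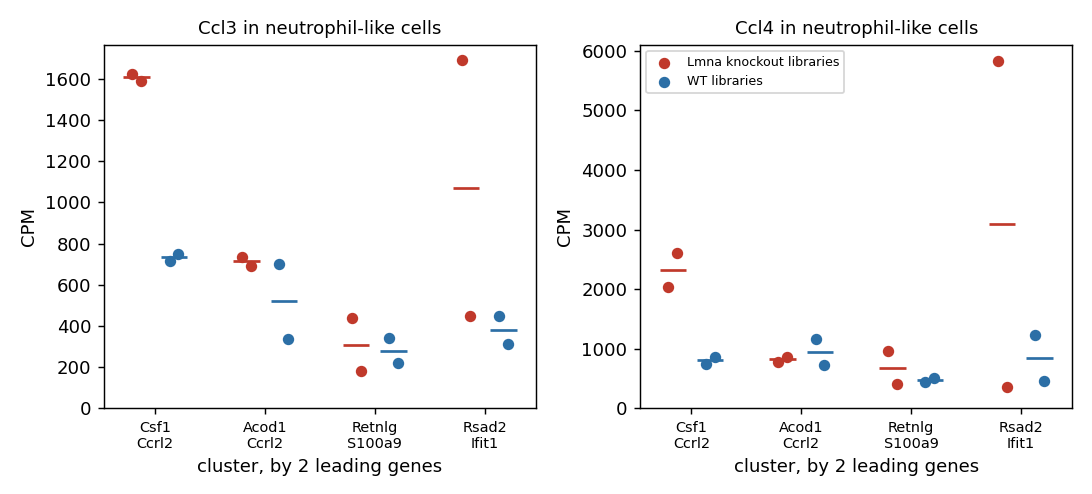
CPM of Ccl3 (left panel) and Ccl4 (right panel) in 4 clusters of neutrophil-like cells named by their leading genes, 1 point per library with knockout on the left and WT on the right, and a line at the mean. In the Csf1 Ccrl2 cluster the knockout libraries have 2033 and 2605 CPM of Ccl4 and the WT libraries 752 and 861; the fifth cluster (Camp Ngp, 3 to 16 cells a library) is not drawn.

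Basophil-like cells, whose leading genes include Cpa3, Gata2, Mcpt8, Ms4a2 and Cd200r3, had the highest levels of Ccl3 and Ccl4, clear of the next class. Ccl3 and Ccl4 are themselves among the leading genes of that cluster, so their levels there are a description only. Mast cell markers scored next after those of basophils. Ccl3 had 25092 and 24596 CPM in knockout basophil-like cells, against 23555 and 15028 CPM in WT, without overlap and without a test. Ccl4 had 23824 and 27409 CPM in knockout, against 26130 and 19990 CPM in WT, so the ranges overlapped. They numbered 20 and 27 cells in knockout and 23 and 19 in WT, under the 25 cells required for the test in 3 of the 4 libraries. In every library each basophil-like cell with a Ccl3 UMI also had one of Ccl4. These cells also had the highest Ccl9, at 3859 and 2782 CPM in knockout and 2933 and 2179 CPM in WT, clear of the next class. Their Ccl6 level was 5229 and 5590 CPM in knockout, against 6903 and 5088 CPM in WT, with overlap.

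Ccl5 (chromosome 11, 83525778 to 83530518, minus strand), the T and NK cell chemokine, was present in every NK cell-like cell. It had 15235 and 16307 CPM in knockout NK cell-like cells, against 13853 and 15239 CPM in WT, and the ranges overlapped (log2 fold change 0.10 ± 0.10, adjusted p = 0.865). An unnamed cluster led by Ccl5, Ikzf2 and Cxcr3, which also expressed Gzmk and Klrc1, had 10832 and 6395 CPM in knockout, against 5601 and 9051 CPM in WT (0.13 ± 0.24, adjusted p = 0.991). Regulatory T cell-like cells had 293 and 517 CPM in knockout, against 245 and 512 CPM in WT. Mature migratory dendritic cell-like cells ranged from 3223 to 18196 CPM of Ccl5 over the libraries, which overlaps NK cell-like cells, without a test.

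In all 7 lymphoid classes the Ccl5 fold change was above 0, with 0 past the threshold by edgeR and 4 at an unadjusted p under 0.05. The classes come from the same libraries, and the share of all genes at that unadjusted p is not given. By DESeq2 0 passed in the 5 of these classes where it gave an adjusted p. The lowest adjusted p was that of B cell-like cells, with 16.1 and 15.4 CPM in knockout, against 8.03 and 6.37 CPM in WT (log2 fold change 1.06 ± 0.25, adjusted p = 0.134). CD8 T cell-like cells had 74.6 and 54.5 CPM in knockout, against 14.5 and 33.5 CPM in WT (1.46 ± 0.38, adjusted p = 0.369). This fold change passed the threshold under 7 of 11 alternatives, among them each of the 4 fits without a library (adjusted p from 4.6e-10 to 0.0173), which carry the same assumption on the lone library. It did not pass by DESeq2 or with cells classed by their own markers (0.932). Over all kept cells Ccl5 was at 1362 and 1405 CPM in knockout libraries, against 1086 and 876 CPM in WT, and the part of free RNA in the low values of B and T cell-like cells was not tested.

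NK cell-like cells also carried Ccl3 and Ccl4. Ccl3 had 524 and 372 CPM in knockout NK cell-like cells, against 310 and 205 CPM in WT, without overlap (log2 fold change 0.75 ± 0.18, adjusted p = 0.0581), where 0.997% of genes were called. This passed the threshold under 5 of 12 alternatives, among them the fits without WT 1 (adjusted p = 3.9e-07) and without knockout 2 (0.0018), and did not pass without WT 2 (0.115), without knockout 1 (0.197) or by DESeq2 (0.770). Ccl4 had 879 and 624 CPM in knockout, against 716 and 540 CPM in WT, with overlap (0.23 ± 0.14, adjusted p = 0.693). Over the 10 classes other than alveolar macrophage-like cells, 34 tests of members gave 1 call, that of Ccl4 in neutrophil-like cells. An unadjusted p under 0.05 was found in 15 of these tests. They come from the same libraries, and the share of all genes at that cut is not given. The share of genes called was 0.346% in B cell-like, 0.415% in CD4 T cell-like, 0.558% in CD8 T cell-like and 0.371% in regulatory T cell-like cells, 0.518% in the unnamed Igfbp4 Ly6c1 cluster and 0.42% in the Ikzf2 Cxcr3 cluster. The 6 tests of Ccl4 all had a fold change above 0, as did 4 of 5 of Ccl3. The number of calls changed with the library left out, and the share of all genes called in those fits is not given.

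In the monocyte classes, which held Ccl6 and Ccl9, no member passed the threshold with cells classed by cluster and all libraries kept. Classical monocyte-like cells had 810 and 755 CPM of Ccl9 in knockout, against 720 and 758 CPM in WT (log2 fold change 0.08 ± 0.12, adjusted p = 0.881). Nonclassical monocyte-like cells had 329 and 301 CPM in knockout, against 227 and 261 CPM in WT, without overlap (0.38 ± 0.12, adjusted p = 0.216). The adjusted p of Ccl9 in these cells was 0.0135 without WT 2 and 0.0128 with cells classed by their own markers, and Ccl6 in classical monocyte-like cells passed under the same classing, as given above. Ccl2 in classical monocyte-like cells ranged from 55.7 to 152 CPM in knockout and from 79.5 to 134 CPM in WT (-0.10 ± 0.73, adjusted p = 0.983). Here 0.584% and 0.541% of genes were called in classical and nonclassical monocyte-like cells, and none was a member.

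Over all kept cells of a library, Ccl17 was the 1 member of 10 past the threshold, where 0.432% of 13880 genes were called. It had 72.5 and 59.8 CPM in knockout libraries, against 13.6 and 18.5 CPM in WT, a log2 fold change of 2.03 ± 0.18 (adjusted p = 0.0367). This value mixes RNA per cell with cell numbers, which cannot be told apart in it. In WT 2 the sum includes 3553921 UMIs of the Top2a Mki67 cluster and 769578 UMIs of T cell precursor-like cells. These held 1 and 0 Ccl17 UMIs, and their part in this and the other values over all kept cells was not tested. The adjusted p of Ccl17 was 0.134 without knockout 1 and 0.481 under the stricter cell filter. How many members were called also depended on the library left out, and the share of all genes called in those fits is not given.

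The Ccl17 RNA of knockout libraries came from several classes. Mature migratory dendritic cell-like cells had 360 and 371 Ccl17 UMIs in knockout, against 79 and 85 in WT, from 18 and 19 cells in knockout and 5 and 4 cells in WT. Scaled to the UMIs of the class the levels overlapped, at 1660 and 1491 CPM in knockout and 935 and 1521 CPM in WT. Conventional dendritic cell 1-like cells had 1193 and 1467 CPM in knockout, against 905 and 1180 CPM in WT, without overlap, from 12 to 16 cells a library. In knockout the richest cell of a library held 157 of 318 and 134 of 320 of these UMIs. In WT it held 50 of 193 and 215 of 293, so the order of the libraries hangs on single cells. The Mmp12 AA467197 cluster had 345 and 134 Ccl17 UMIs in knockout and 0 in the 2 cells of WT 1. Its richest cells held 161 and 94 of the knockout UMIs. An unnamed cluster led by Retnla and Lyz1 had 89 and 337 in knockout, against 1 and 45 in WT. There 1 cell held all 89 UMIs of knockout 1, 1 cell 179 of the 337 of knockout 2 and 1 cell 44 of the 45 of WT 2. In classical monocyte-like cells of knockout 1 all 267 Ccl17 UMIs came from 1 cell. Of all Ccl17 UMIs, mature migratory dendritic cell-like cells held 27.8% in knockout and 20.8% in WT, and conventional dendritic cell 1-like cells 24.2% in knockout and 61.6% in WT.

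Ccl22 (chromosome 8, 94745590 to 94751699, plus strand) was held mostly by mature migratory dendritic cell-like cells, at 85.3% of its UMIs in knockout and 77.5% in WT. These had 2882 and 2376 CPM in knockout, against 4816 and 2934 CPM in WT, without a test. Both knockout levels were below both WT levels, but the WT levels rest on 5 and 4 cells. In WT, 1 cell held 267 of the 407 UMIs of WT 1 and 1 cell held 85 of the 164 UMIs of WT 2. The richest cells of knockout 1 and knockout 2 held 158 of 625 and 137 of 591 UMIs. The order of the groups is thus not secure. Among cells of this class with a Ccl17 UMI, 94.1% and 100% in knockout and 100% in each WT library also had Ccl22. Over all kept cells Ccl22 had 39.5 and 32.1 CPM in knockout, against 19.4 and 10.7 CPM in WT (log2 fold change 1.24 ± 0.31, adjusted p = 0.220). Ccl2 over all kept cells had 60.4 and 47.0 CPM in knockout, against 29.3 and 33.3 CPM in WT (0.77 ± 0.14, adjusted p = 0.137). Ccl6 over all kept cells had 915 and 890 CPM in knockout, against 1163 and 918 CPM in WT (-0.21 ± 0.14, adjusted p = 0.532). Its level within alveolar macrophage-like cells was higher in knockout, and that class held 34.4% of knockout and 72.4% of WT Ccl6 UMIs. The Mmp12 AA467197 cluster held 21.4% of knockout and 0.0176% of WT Ccl6 UMIs.

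The CCR8 ligand Ccl8 and the eosinophil attractant Ccl24 had their highest means in the C1qa C1qb cluster, which had 5 to 14 cells a library. It held 98.5% of Ccl8 UMIs in knockout and 88% in WT, and 25% of Ccl24 UMIs in knockout and 79.6% in WT. Classical monocyte-like cells held 40% of the knockout Ccl24 UMIs, all 32 of them in knockout 2 and 22 of these in 1 cell. In the C1qa C1qb cluster Ccl24 had 105.9 and 100.5 CPM in knockout, against 723 and 318 CPM in WT, without overlap and without a test. In the same cluster Ccl8 had 135 and 1988 CPM in knockout, against 88.7 and 15.9 CPM in WT, and 150 of the 178 UMIs in knockout 2 came from 1 cell.

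Over the 44 sums of 11 tested classes and 4 libraries, the genes whose pattern was most like that of a member were found by Pearson correlation of log2(CPM + 10), as a description; the sums of a library share its depth, and those of a class its cells. Ccl6 was most like Csf2rb (r = 0.99), a receptor subunit for GM-CSF, Tlr2 and Wdfy3. Ccl3 and Ccl4 were among each other's nearest genes (r = 0.91). Ccl5 was most like Ncald, the cytokine gene Ifng and Samd3 (r from 0.93 to 0.94), Ccl2 like Fn1, Mfsd7a and Ptgr1 (0.94 to 0.96), Ccl9 like Stard8, Apba1 and Psap (0.97 to 0.98), and Ccl17 like the chemokine gene Cxcl16, Cfb and Cxcl9 (0.79 to 0.87). Basophil-like and mature migratory dendritic cell-like cells, the highest by mean in Ccl3, Ccl4, Ccl17 and Ccl22, are not among these classes.

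Other genes of the chemokine system gave no call in alveolar macrophage-like cells. Of 14 other CC chemokine genes 2 were tested there and of 16 CC receptor genes 5, and 0 of them passed by edgeR; in both lists 0 had an unadjusted p under 0.05. The receptor-like gene Ccrl2 had 114 and 161 CPM in knockout, against 118 and 108 CPM in WT (adjusted p = 0.285), and Ccl7 had 12.03 and 35.3 CPM in knockout, against 10.7 and 41.5 CPM in WT (adjusted p = 0.991). Of 7 CC receptor genes tested in regulatory T cell-like cells 1 was called, where 0.371% of all genes were called. This was the lymph node homing receptor gene Ccr7, which fell (log2 fold change -0.82 ± 0.17, adjusted p = 0.0391). It had 295 and 341 CPM in knockout, against 581 and 472 CPM in WT. No CC receptor gene was called in any other tested class, so this is a lone call.

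In alveolar macrophage-like cells 2.8% of all 9027 genes tested were called lower in knockout. Of 12 NF-kB subunit and inhibitor genes tested there, 3 fell: Nfkbiz, Tnfaip3 and Nfkbia, all encoding regulators or inhibitors of the pathway. Nfkbia had 400 and 484 CPM in knockout, against 685 and 602 CPM in WT (log2 fold change -0.48 ± 0.14, adjusted p = 0.0321). Of 17 tested immediate early and dissociation genes 9 fell, among them Nr4a1, Ier2, Fosb and Egr2, with Egr2 at 150 and 129 CPM in knockout, against 224 and 263 CPM in WT (adjusted p = 0.0047). The median log2 fold change of that list was -0.51, and its part in the lower Ccl2 was not tested. The type 2 cytokine response of macrophages in other settings accompanies Ccl17 and Ccl24. Of 11 tested genes of this list 1 fell, the mannose receptor gene Mrc1. It had 744 and 709 CPM in knockout, against 1154 and 1105 CPM in WT (adjusted p = 0.0054). A single call does not describe the list, whose median log2 fold change was -0.060.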

How the data were processed

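Single-cell RNA libraries were made with a Chromium 3-prime kit, and the deposited tables are unnormalized UMI counts, made by the authors with Cell Ranger 3.0.2 on mm10 (Seurat 3.0.0 is also named), per the submitters' processing notes. Barcodes under 200 genes or above 10% mitochondrial UMIs were dropped, and 461 predicted doublets of 15181 were removed. Cells were clustered in scanpy 1.11.5 on 2000 variable genes without chemokine genes (30 components, resolution 2) and classes named from marker lists. Counts were summed per library and class, and classes with at least 25 cells in every library were tested with edgeR 4.0.16 (quasi-likelihood, TMM, filterByExpr, Benjamini-Hochberg threshold 0.05) in R 4.3.3, with DESeq2 1.42.0 as an alternative. Differences between class effects were tested with library as a block. The procedures were tested on simulated data. Intervals are exact binomial (Clopper-Pearson) and cover counting error only. The members and lists were chosen with earlier results of these data known, the 20 UMI minimum and the motifs after seeing the data. Named genes are all members, Lmna, up to 4 genes of each list by smallest p in alveolar macrophage-like cells, any called gene of the other CC chemokine and CC receptor lists, and the 3 nearest genes of each member with at least 200 UMIs in the tested classes. Promoter sequences are from RefSeq.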

Additional observations from a re-analysis of the deposited data

Results flagged for a closer look

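The genotype effect (Lmna knockout minus WT, log2) of alveolar macrophage-like cells differed from that of another class in 4 of the 16 pairs tested, by a test of the difference itself, edgeR's quasi-likelihood test with Benjamini-Hochberg adjustment. For Ccl6 the effect was greater than that in classical monocyte-like cells by 0.924936, than that in B cell-like cells by 0.913643 and than that in nonclassical monocyte-like cells by 0.634033. For Ccl3 the difference from NK cell-like cells was -0.576271, from an effect of 0.21 in alveolar macrophage-like cells and 0.75 in NK cell-like cells. Of the 16 pairs, 10 had an unadjusted p under 0.05, a count given without the share of all genes at that cut. The pairs reuse the same effects of alveolar macrophage-like cells, so they are not separate results. The differences from B cell-like and NK cell-like cells lost their call whichever of the 4 libraries was left out, that from nonclassical monocyte-like cells lost it in 3 of these 4 fits (not without WT 1), and that from classical monocyte-like cells was -0.06 with cells classed by their own markers.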

How the results depend on the processing

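The number of members past the threshold in alveolar macrophage-like cells was 3, and 2 to 4 under the alternatives. The number of genes called there was 552, against 215 by DESeq2, 325 with the replicate block, 1496 with the Mmp12 AA467197 cluster joined and 168 to 402 with a library left out. In the other classes 1 member test was called, against 2 with DESeq2 size factors, 2 by DESeq2, 7 without the filter on low counts, 7 with the replicate block, 2 with doublets kept, 6 with cells classed by their own markers and 3 to 9 with a library left out. Over all kept cells 1 member was called, against 6 by DESeq2, 2 without the filter, 0 with the replicate block, 0 under the stricter cell filter and 0 to 5 with a library left out. For differences between classes 4 were called, against 7 by DESeq2 and 3 to 4 with a library left out, but these are not all the same pairs: of the 4, only Ccl6 against classical monocyte-like cells passed in each fit without a library (adjusted p from 0.0037 to 0.0339). Fits without a library leave 1 in a genotype, which is assumed to vary like the other genotype. The cause of these shifts was not tested.

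Direction turned in 10 cases, given as log2 fold changes. In alveolar macrophage-like cells Ccl2 turned with the cluster joined (2.85). With a library left out, Ccl3 there ranged from -0.033 (without WT 2) to 0.49 (without WT 1). Ccl4 there ranged from -0.80 (without WT 2) to 0.65 (without WT 1), with 0.074 without knockout 2, and Ccl5 from -1.06 (without knockout 2) to 2.34 (without knockout 1). Ccl4 in NK cell-like cells ranged from -0.0050 (without knockout 1) to 0.45 (without WT 1). Ccl6 in classical monocyte-like cells ranged from -0.091 (without knockout 1) to 0.060 (without WT 2), with 0.054 without knockout 2, and was 0.98 with cells classed by their own markers and 0.013 with chemokine genes among the clustering genes. Of 229 recomputed values of 19 single-gene results, 180 kept direction and side of the threshold, 11 lost the call and 28 gained one. Libraries of the same number did not deviate together (r = 0.020 in alveolar macrophage-like cells, -0.005 in neutrophil-like cells and 0.107 over all kept cells, across genes), so the numbers were not taken as pairs. The stricter cell filter gave no value for alveolar macrophage-like cells, which then had fewer than 25 cells in a library. With 34 to 52 knockout alveolar macrophage-like cells a library, low members such as Ccl22 rest on few UMIs.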
